A study of Mus musculus with 6 samples.

Results

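The 10 genes described here encode the receptor and signalling parts of the leukaemia inhibitory factor (LIF) pathway and a set of genes that STAT3 is known to switch on. They were taken by gene symbol from a table of FPKM values (fragments scaled to gene length and to the library's fragment total): Lifr and Il6st for the receptor, Jak1 and Stat3 for the signal, and Socs3, Pim1, Pim3, Bcl3, Gbx2 and Fgl1 for the targets. All 10 were found among the 24043 genes of the table. The libraries came from mouse embryonic stem (ES) cells, 3 labelled Q-KO, which carry a genotype label of cells that lack every G1 cyclin, and 3 wild-type. Both groups were grown with 100 U/ml LIF and inhibitors of MEK (PD184352) and GSK3 (CHIR99021), so LIF was present for all 6 libraries and no library without it was analysed here. Whether a group was 1 clone, and whether replicates were separate cultures, is not given in the sources used here, so the spread behind the p-values is that of these libraries and may be technical.

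LIF holds mouse ES cells in the naive pluripotent state. It binds the LIF receptor, which joins the shared signalling subunit gp130, and the JAK kinases bound to these chains phosphorylate STAT3. STAT3 then enters the nucleus and induces, among others, its own feedback inhibitor SOCS3 and transcription factors of the naive state. RNA levels do not report STAT3 phosphorylation, which was not measured.

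The libraries are ES cells by their markers: the 8 listed ES cell genes summed to 5709 to 10355 FPKM in libraries labelled Q-KO and 5860 to 7274 FPKM in wild-type libraries. Most of each sum was Dppa5a, whose value is uncertain because it has close copies. It was at 3676 to 7781 FPKM in libraries labelled Q-KO and 3738 to 5022 FPKM in wild-type libraries. The groups overlapped for each of the 8 genes. Zfp42 was at 363 FPKM in wild-type replicate 3, against 76.6 and 78.9 FPKM in wild-type replicates 1 and 2. The 5 G1 cyclins summed to 86.4 to 111 FPKM in libraries labelled Q-KO and 137 to 232 FPKM in wild-type libraries, and the 5 genes did not all move one way. Ccnd3 (change -2.76 on the log2(FPKM + 1) scale, limma adjusted p = 0.0101), Ccnd1 (-1.61, limma adjusted p = 0.0124) and Ccne2 (-0.97, limma adjusted p = 0.0182) fell. Ccne1 was higher in every library labelled Q-KO than in every wild-type library, but did not pass (change 0.62, limma adjusted p = 0.113). It was at 65.3, 73.5 and 87.3 FPKM in libraries labelled Q-KO and at 55.9, 53.9 and 37.5 FPKM in wild-type libraries. Ccnd2, too low to be tested, also averaged more in libraries labelled Q-KO, at 0.398 FPKM against 0.179 FPKM in wild-type, with overlapping groups. The values are per gene and do not show whether a gene is intact, so the genotype was not tested here. Every direction below is therefore that of the libraries labelled Q-KO. Wild-type replicate 3 differed from replicates 1 and 2 of its group. It was the highest or the lowest of the wild-type libraries for 71.8% of all tested genes, and of all 6 libraries for 43.5%. These shares alone do not set it apart, since any 1 of 3 like libraries is an extreme for most genes. The shares of the other libraries were not computed. In wild-type replicate 3 the 5 Y-linked genes summed to 101 FPKM, against 43.8 to 72.3 FPKM in libraries labelled Q-KO and 0 in wild-type replicates 1 and 2. Genes of chromosomes 8 and 11, which hold Fgl1 and Stat3 and Socs3, were higher in wild-type replicate 3 than in the mean of the other wild-type libraries, with a median difference of 0.25 on the log2(FPKM + 1) scale on each of these chromosomes, against -0.02 over all tested genes. Relative to wild-type replicate 1, the depth read from low values was 1.1 to 1.23 in the other 5 libraries. The absolute depth is unknown.

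Of the 10 genes 1, the low-level target Fgl1, passed the test, as higher in libraries labelled Q-KO, and the receptor chains, Jak1, Stat3 and the other targets did not pass. Groups were compared with limma on log2(FPKM + 1), and each change, given on that scale, subtracts wild-type from Q-KO. The Benjamini-Hochberg adjusted p runs over the 11573 genes whose mean reached 1 FPKM. Of these genes, 4.06% passed an adjusted p of 0.05 in either direction, 3.04% as higher and 1.02% as lower in libraries labelled Q-KO. The split of these calls depended on the scaling, with 352 higher and 118 lower as reported, 228 and 182 after median-of-ratios scaling, 247 and 210 after quantile normalization, and 283 and 178 after each chromosome was centred. For 4 of the 10 genes the groups had separate ranges. In 3 of them (Socs3, Bcl3 and Fgl1) the libraries labelled Q-KO lay above, as they did in 18.2% of all tested genes, and in 1 (Pim1) they lay below, as in 9.44% of all tested genes. The median change was 0.37 over the 10 genes and 0.07 over all tested genes. In bulk libraries, a different share of cells that express a gene and a different level per cell cannot be told apart.

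**Figure D1:**
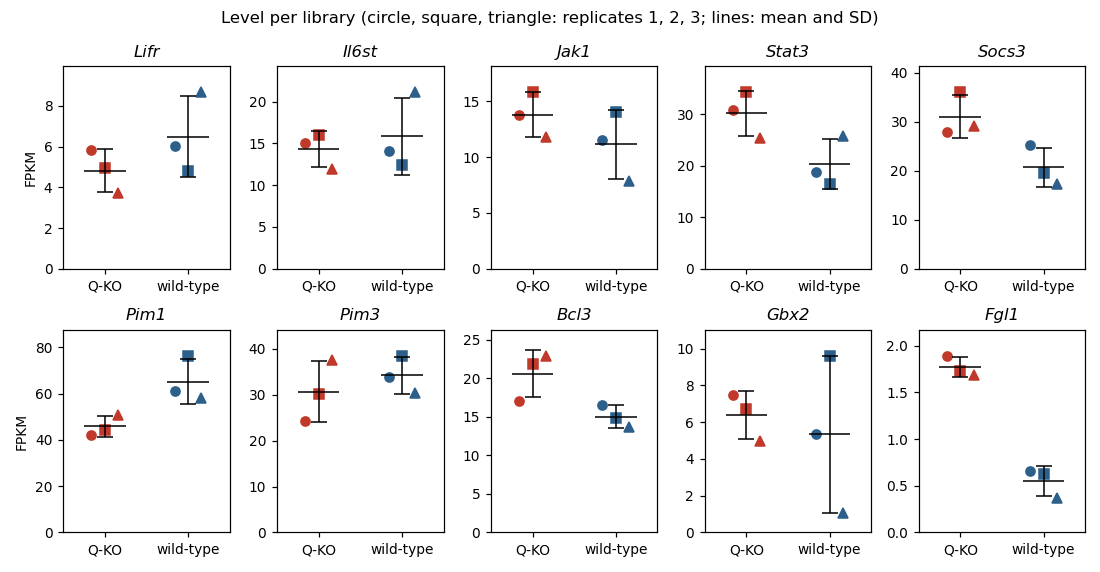
Level in FPKM of each of the 10 genes in each library, with libraries labelled Q-KO in red on the left and wild-type in blue on the right; circles, squares and triangles are replicates 1, 2 and 3, and black lines are the mean and SD (n = 3 per group). The groups do not overlap for Socs3, Pim1, Bcl3 and Fgl1, and the triangle of wild-type replicate 3 is the highest or lowest wild-type value in all 10 panels.

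By level, which FPKM allows to be set side by side because it is per length, Pim1 was the most abundant and Fgl1 the least abundant in both groups. Pim1 averaged 45.9 ± 4.49 FPKM in libraries labelled Q-KO and 65.2 ± 9.7 FPKM in wild-type libraries (mean ± SD with n = 3 in each group, here and in later means). In libraries labelled Q-KO, Socs3, Pim3 and Stat3 came next at means of 31.1, 30.7 and 30.1 FPKM, and their ranges overlapped. In wild-type libraries Pim3 was next at 34.2 FPKM, and every value of it lay above every value of Socs3 and of Stat3, whose means were 20.7 and 20.3 FPKM. Bcl3, Il6st and Jak1 were intermediate, with means between 13.8 and 20.6 FPKM in libraries labelled Q-KO and between 11.1 and 15.9 FPKM in wild-type libraries. Gbx2 and Lifr were lower, and their ranges overlapped in each group.

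Neither receptor chain passed the test. Lifr, the chain that gives the complex its specificity for LIF, was at 5.82, 4.93 and 3.73 FPKM in libraries labelled Q-KO and at 6.03, 4.79 and 8.67 FPKM in wild-type libraries. The groups overlapped, and the highest value was that of wild-type replicate 3 and the lowest that of Q-KO replicate 3. Its change was -0.35 (SE 0.23, 95% interval -0.88 to 0.18, limma adjusted p = 0.426). Leaving out wild-type replicate 3 gave -0.15 and leaving out Q-KO replicate 3 gave -0.21. Lifr passed in neither of these fits (limma adjusted p = 0.752 and 0.667). With a term for libraries with Y-linked transcripts its change was -0.75. That fit in effect sets the libraries labelled Q-KO against wild-type replicate 3 alone. Il6st, which encodes gp130, the signalling chain shared by the interleukin-6 family, was at 15.0, 16.0 and 11.9 FPKM in libraries labelled Q-KO and at 14.1, 12.4 and 21.1 FPKM in wild-type libraries. Again wild-type replicate 3 was the highest and Q-KO replicate 3 the lowest of the 6. The change of Il6st was -0.12 (SE 0.21, 95% interval -0.61 to 0.37, limma adjusted p = 0.785), and 0.09 without wild-type replicate 3.

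Jak1, the kinase that gp130 signalling depends on most, was at 13.8, 15.8 and 11.8 FPKM in libraries labelled Q-KO and at 11.5, 14.0 and 7.89 FPKM in wild-type libraries. The groups overlapped, and wild-type replicate 3, the library highest for both receptor chains, was the lowest of the 6 for Jak1. Its change of 0.31 (SE 0.21, 95% interval -0.18 to 0.80) did not pass (limma adjusted p = 0.447), and it was 0.10 without wild-type replicate 3.

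Stat3 itself, the transcription factor that carries the signal, was at 30.7, 34.2 and 25.4 FPKM in libraries labelled Q-KO and at 18.7, 16.4 and 25.8 FPKM in wild-type libraries. Only wild-type replicate 3 reached the range of the libraries labelled Q-KO, lying just above Q-KO replicate 3. The mean was 1.48 times as high in libraries labelled Q-KO, and the change of 0.56 (SE 0.19, 95% interval 0.12 to 1.01) did not pass over all genes (limma adjusted p = 0.149). The change was 0.74 without wild-type replicate 3 (limma adjusted p = 0.051). When a Y-linked term was added to the model, so that the libraries labelled Q-KO are in effect set against wild-type replicate 3 alone, it was 0.20 (limma adjusted p = 0.634). Stat3 is on chromosome 11, whose genes were higher in wild-type replicate 3, and after each chromosome was centred within each library its change was 0.54 (limma adjusted p = 0.103).

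**Figure D2:**
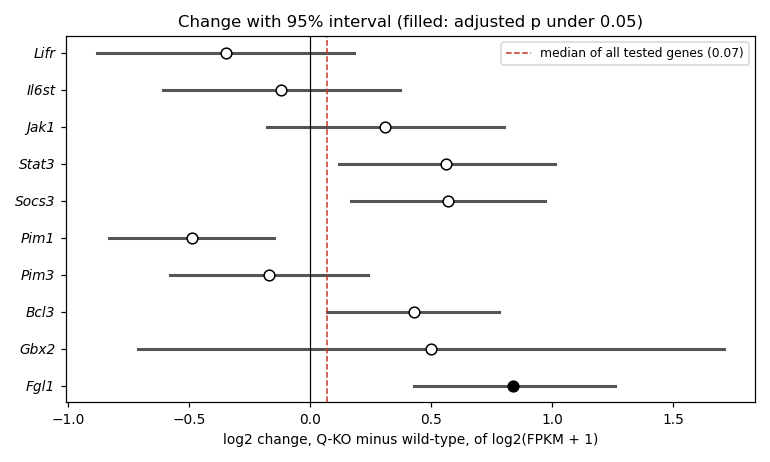
Log2 change (Q-KO minus wild-type, of log2(FPKM + 1)) of the 10 genes with its 95% interval from limma; the filled point passed an adjusted p of 0.05 and the dashed line is the median of all tested genes, 0.07. The intervals of Stat3, Socs3, Bcl3 and Fgl1 lie above 0 and that of Pim1 below 0, and Fgl1 alone is filled.

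Among the targets, Socs3, the feedback inhibitor that binds gp130 and the JAK kinases, was at 28.0, 36.0 and 29.2 FPKM in libraries labelled Q-KO and at 25.2, 19.5 and 17.4 FPKM in wild-type libraries. Every library labelled Q-KO lay above every wild-type library, and wild-type replicate 3 was the lowest of the 6 although chromosome 11, where Socs3 lies, was higher there. The mean was 1.5 times as high, and the change of 0.57 (SE 0.17, 95% interval 0.17 to 0.97) did not pass over all genes (limma adjusted p = 0.113). Its change stayed between 0.44 and 0.79 and did not pass in any of the 17 alternatives (limma adjusted p 0.0764 to 0.382). Stat3 and Socs3 were both highest in Q-KO replicate 2, but in wild-type replicate 3 Stat3 was the highest and Socs3 the lowest of the wild-type libraries.

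STAT dimers bind a palindrome whose core can be written TTCNNNGAA, which reads the same on both strands. It was searched for in RefSeq promoter windows of build GRCm38.p6, from 250 bases before to 50 bases after each annotated start. Of the 10 genes 9 had a window (all but Fgl1), and of their 11 windows 1 held a match, that of Socs3, against 8.3% of all 32851 windows. In the Socs3 promoter (chr11:117969367-117969616, minus strand) the match TTCTTAGAA lay 154 to 146 bases before the start. The 250 bases before the starts of Socs3, the member with the match, and of Stat3 (chr11:100939541-100939790, minus strand), which had none, are shown 5′ to 3′ with the match in capitals.
Socs3: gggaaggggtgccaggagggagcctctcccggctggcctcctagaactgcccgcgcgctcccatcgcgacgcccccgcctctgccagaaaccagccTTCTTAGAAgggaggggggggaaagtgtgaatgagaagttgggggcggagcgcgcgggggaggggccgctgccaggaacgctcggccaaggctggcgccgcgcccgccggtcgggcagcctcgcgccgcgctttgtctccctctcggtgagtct
Stat3: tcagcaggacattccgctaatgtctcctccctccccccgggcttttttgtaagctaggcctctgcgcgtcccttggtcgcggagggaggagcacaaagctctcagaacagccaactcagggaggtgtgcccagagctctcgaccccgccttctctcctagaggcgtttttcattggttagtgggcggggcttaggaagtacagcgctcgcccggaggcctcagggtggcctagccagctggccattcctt
The match describes letters in these windows, and binding was not measured. Of the other gene lists used below, 3 of 41 windows of JAK-STAT genes (Cish and Gab1) held the same core. So did 3 of 18 windows of STAT3-linked genes (Icam1, Kdm3a and Zfp36). These shares were 7.32% and 16.7%, against 8.3% of all windows.

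Pim1 and Pim3 encode serine/threonine kinases that promote survival and ES cell self-renewal, and neither passed the test. Pim1 was at 42.3, 44.4 and 50.9 FPKM in libraries labelled Q-KO and at 61.1, 76.3 and 58.2 FPKM in wild-type libraries. All libraries labelled Q-KO lay below all wild-type libraries, opposite in direction to Socs3, with a mean 0.704 times that of wild-type. The change of -0.49 (SE 0.15, 95% interval -0.83 to -0.15) did not pass over all genes (limma adjusted p = 0.113), and it lay between -0.62 and -0.34 in the 17 alternatives (limma adjusted p 0.0564 to 0.377). Pim3 was at 24.3, 30.1 and 37.5 FPKM in libraries labelled Q-KO and at 33.9, 38.4 and 30.3 FPKM in wild-type libraries. Its groups overlapped, and the change was -0.17 (SE 0.18, 95% interval -0.58 to 0.24, limma adjusted p = 0.632). It ranged from -0.32 without Q-KO replicate 3 to -0.02 without Q-KO replicate 1 (limma adjusted p = 0.32 and 0.968). Against wild-type replicate 3 alone, in the fit with the Y-linked term, it was -0.01.

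Bcl3, an atypical IκB protein that modulates NF-κB dimers, was at 17.1, 21.8 and 22.9 FPKM in libraries labelled Q-KO and at 16.6, 14.8 and 13.7 FPKM in wild-type libraries. The groups did not overlap, although Q-KO replicate 1 and wild-type replicate 1 were close. The change of 0.43 (SE 0.16, 95% interval 0.07 to 0.78) did not pass over all genes (limma adjusted p = 0.168).

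Gbx2, a homeobox factor that can sustain ES cell self-renewal when overexpressed, was at 7.48, 6.72 and 4.96 FPKM in libraries labelled Q-KO and at 5.38, 9.60 and 1.04 FPKM in wild-type libraries. The wild-type values covered a wider range than the others and enclosed them, with wild-type replicate 2 the highest and wild-type replicate 3 the lowest of the 6. The change of 0.50 (SE 0.52, 95% interval -0.71 to 1.71) did not pass (limma adjusted p = 0.623). Its sign rested on wild-type replicate 3, without which it was -0.17 (limma adjusted p = 0.766), whereas against that library alone, in the model with the Y-linked term, it was 1.84 (limma adjusted p = 0.016).

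Fgl1 encodes fibrinogen-like protein 1, a protein secreted mainly by the liver whose gene is induced through STAT3 in hepatocytes. It was at 1.89, 1.73 and 1.69 FPKM in libraries labelled Q-KO and at 0.659, 0.623 and 0.365 FPKM in wild-type libraries. The libraries labelled Q-KO lay close together and above all wild-type libraries, with a mean 3.22 times as high (1.77 ± 0.104 and 0.549 ± 0.16 FPKM). On the log2(FPKM + 1) scale, which understates the change of so low a gene, Fgl1 rose by 0.84 (SE 0.18, 95% interval 0.43 to 1.26, limma adjusted p = 0.0436). It reached the filter of 1 FPKM through the libraries labelled Q-KO, since its wild-type mean was below that, so its call is not independent of the filter. The call was close to the threshold and held without wild-type replicate 3 (change 0.75) but in none of the other 5 leave-one-out fits (limma adjusted p 0.0542 to 0.176). It was also lost with a pseudocount of 0.1 (change 1.56, limma adjusted p = 0.0634), after median-of-ratios scaling (0.77, limma adjusted p = 0.0579), quantile normalization (0.58, limma adjusted p = 0.0983) or chromosome centring (0.86, limma adjusted p = 0.06).

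The summed levels of hepatic and of fibroblast markers overlapped between the groups, while some single markers did not. Of 8 hepatic markers, 5 stayed under 0.1 FPKM in all 6 libraries, and none reached a mean of 1 FPKM. Their sum was 1.52 to 2.27 FPKM in libraries labelled Q-KO and 0.645 to 2.14 FPKM in wild-type libraries, which overlap. Afp, the fetal albumin-like protein, was at 0.143, 0.0399 and 0.0303 FPKM in libraries labelled Q-KO and was listed at 0 in all wild-type libraries. The 9 fibroblast markers, listed because feeder cells can accompany ES cells, summed to 7.44, 1.7 and 1.34 FPKM in Q-KO replicates 1, 2 and 3 and to 1.81 to 3.08 FPKM in wild-type libraries. Q-KO replicate 1 held the collagens Col1a1 (1.86 FPKM), Col1a2 (1.16 FPKM) and Col3a1 (1.35 FPKM), named after their values were seen. Fbn1, which encodes the microfibril protein fibrillin, was higher in every library labelled Q-KO, at 0.823, 0.736 and 0.351 FPKM, against 0.194, 0.228 and 0.0759 FPKM in wild-type libraries. Thy1, a surface glycoprotein, was lower in every library labelled Q-KO, at 1.36, 0.828 and 0.819 FPKM, against 1.42, 1.83 and 2.75 FPKM in wild-type libraries (limma adjusted p = 0.196). Fbn1 and Thy1 were also chosen with their values known. The 8 trophoblast markers summed to 42.0 to 49.0 FPKM in libraries labelled Q-KO and to 23.4 to 58.7 FPKM in wild-type libraries. These sums overlap through wild-type replicate 3, where the keratin gene Krt8 was at 30.7 FPKM, against 1.65 to 3.73 FPKM in libraries labelled Q-KO and 2 to 3.06 FPKM in the other wild-type libraries. The transcription factor genes Eomes (change 1.62, limma adjusted p = 0.00398) and Tfap2c (0.94, limma adjusted p = 0.0194) rose. Cdx2 and Gata3, 2 more transcription factor genes of the list, were below the filter on low values and higher in every library labelled Q-KO than in all wild-type libraries. Cdx2 averaged 0.547 FPKM in libraries labelled Q-KO and 0.031 FPKM in wild-type libraries, and Gata3 averaged 0.275 FPKM in libraries labelled Q-KO and 0.113 FPKM in wild-type libraries. Krt8 (change -1.17, limma adjusted p = 0.437) and Krt18 (-0.52, limma adjusted p = 0.453) averaged lower in libraries labelled Q-KO. Hand1 also averaged lower (0.0783 FPKM against 0.122 FPKM in wild-type libraries) and Elf5 higher (0.0883 FPKM against 0.0498 FPKM). The groups overlapped for Krt8, Krt18, Hand1 and Elf5. All but Tfap2c, the most abundant of the list, were named with their values known. The 8 primitive endoderm markers, led by Lamb1, summed to 12.3 to 14.5 FPKM in libraries labelled Q-KO and to 8.82 to 10.8 FPKM in wild-type libraries, which do not overlap. Lamb1, the only gene of the list with a mean of at least 1 FPKM, made up most of these sums. It was at 9.52, 12.2 and 12.6 FPKM in libraries labelled Q-KO and at 9.26, 6.89 and 7.57 FPKM in wild-type libraries (limma adjusted p = 0.156). Of the rest, Dab2 was higher in every library labelled Q-KO. The others overlapped between the groups, with Gata4 and Foxa2 averaging lower in libraries labelled Q-KO. The part of these markers in the values of the 10 genes was not tested.

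Across the 10 genes, wild-type replicate 3 was the highest or the lowest of the wild-type libraries for every one, and of all 6 libraries for 7, where the shares of all tested genes were those given above. On the log2(FPKM + 1) scale it differed from the mean of the other wild-type libraries by 0.60 for Lifr, 0.64 for Il6st and 0.54 for Stat3, and by -0.62 for Jak1 and -2.01 for Gbx2. These differences were as large as or larger than the change between the groups for Lifr, Il6st, Jak1 and Gbx2, and so was that for Pim3 (-0.24). For Socs3 (-0.33), Pim1 (-0.23), Bcl3 (-0.19) and Fgl1 (-0.27) it was lower than the other wild-type libraries by less than that change.

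**Figure D3:**
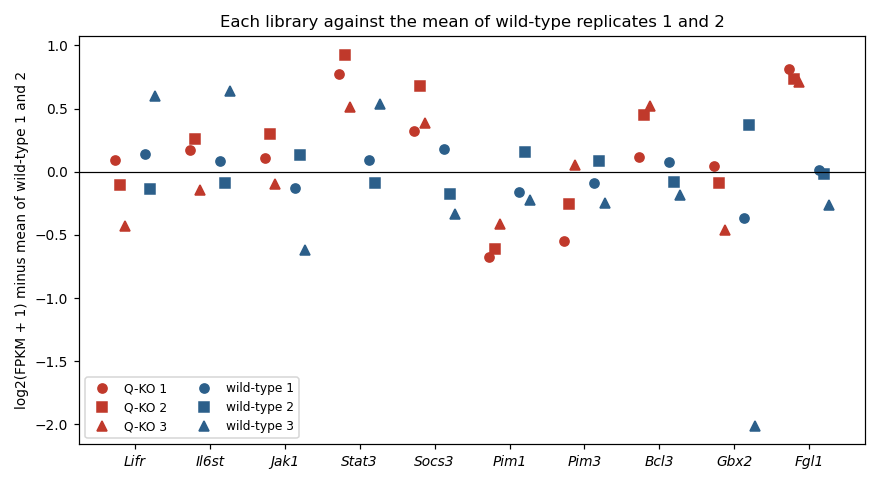
Log2(FPKM + 1) of each library minus the mean of wild-type replicates 1 and 2, for the 10 genes, with libraries labelled Q-KO in red left of wild-type in blue. Wild-type replicate 3 lies near 0.6 for Lifr and Il6st and at -2.01 for Gbx2, and the libraries labelled Q-KO lie together above 0 for Stat3, Socs3, Bcl3 and Fgl1 and below 0 for Pim1.

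In the rest of the JAK-STAT pathway, 1 of 33 tested genes rose and 0 fell, where 39 were listed and 6 were below the filter. Of all tested genes 3.04% rose and 1.02% fell, so the count is near the background. Their median change was 0.11 for the list and 0.07 for all tested genes. The gene that rose was Socs2, a feedback inhibitor best known for damping growth hormone signalling through STAT5. It was at 34.0, 34.8 and 40.0 FPKM in libraries labelled Q-KO and at 20.7, 20.5 and 20.2 FPKM in wild-type libraries. The wild-type values were nearly equal and all below those of the libraries labelled Q-KO, and the change was 0.79 (SE 0.12, limma adjusted p = 0.0155). The call was lost without wild-type replicate 1 (limma adjusted p = 0.0657), Q-KO replicate 2 (limma adjusted p = 0.107) or Q-KO replicate 3 (limma adjusted p = 0.0574).

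Among the ligands, 4 of 8 were tested and 0 passed (limma; unadjusted p under 0.05 for 2). Of all 11573 tested genes, 21.5% had an unadjusted limma p under 0.05, which is the background for such counts. Cntf, 1 of the 2, is not independent of the filter, which it reached through the libraries labelled Q-KO. Its means were 1.99 FPKM there and 0.882 FPKM in wild-type libraries. Osm, oncostatin M, which signals through gp130 with either the LIF receptor or its own receptor chain, was the most abundant. It was at 5.97, 4.18 and 4.49 FPKM in libraries labelled Q-KO and at 7.54, 10 and 13.3 FPKM in wild-type libraries. The groups did not overlap, and the change of -0.92 (SE 0.22) missed the threshold (limma adjusted p = 0.0611). Osm passed with median-of-ratios scaling, quantile normalization, chromosome centring or a robust fit (limma adjusted p 0.0468 to 0.0499). With the Y-linked term, which in effect sets the libraries labelled Q-KO against wild-type replicate 3 alone, its change was -1.29. It did not pass in any leave-one-out fit (limma adjusted p 0.0758 to 0.26). Nor did it pass with the replicate block (limma adjusted p = 0.101) or no filter (limma adjusted p = 0.112). Osmr, its own receptor chain, was at most 0.0981 FPKM in any library. Lif itself, a gene chosen with its values known, was at 2.36, 2.10 and 1.58 FPKM in libraries labelled Q-KO and at 2.02, 1.81 and 3.42 FPKM in wild-type libraries (limma adjusted p = 0.726). The most abundant other receptor was Il6ra, the interleukin-6 binding chain, at 3.91 ± 0.919 FPKM in libraries labelled Q-KO and 2.57 ± 1.01 FPKM in wild-type libraries (limma adjusted p = 0.312).

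Of the other kinases and STATs, 0 of 3 and 0 of 6 passed (limma; unadjusted p under 0.05 for 1 in each list, against the 21.5% of all tested genes). Jak3 was the most abundant of these kinases, at 20.3, 16.5 and 18.8 FPKM in libraries labelled Q-KO and at 11.0, 7.67 and 19.2 FPKM in wild-type libraries. Wild-type replicate 3 lay among the libraries labelled Q-KO, and the change was 0.61 with it (limma adjusted p = 0.259) and 0.94 without it (limma adjusted p = 0.032). Stat2, the most abundant other STAT, was at 11.4 ± 2.17 FPKM in libraries labelled Q-KO and 10.4 ± 1.55 FPKM in wild-type libraries (limma adjusted p = 0.76).

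Of 15 inhibitors, Socs2 was the 1 that passed, where 4.06% of all tested genes passed. The unadjusted limma p was under 0.05 for 4 of the 15, against 21.5% of all tested genes. Cish, 1 of the 4, reached the filter through the libraries labelled Q-KO (means of 1.48 FPKM there and 0.671 FPKM in wild-type libraries). Pias3, which encodes an inhibitor of STAT3 DNA binding, was at 12 ± 2.32 FPKM in libraries labelled Q-KO and 7.79 ± 0.834 FPKM in wild-type libraries, with separate ranges (change 0.56, limma adjusted p = 0.115). Pias2, the most abundant of the list, was at 77.2 ± 9.6 FPKM in libraries labelled Q-KO and 70.5 ± 2.01 FPKM in wild-type libraries (limma adjusted p = 0.642). The adaptors, which link gp130 to other pathways, had 0 of 3 calls (limma; unadjusted p under 0.05 for 0). Gab1 was their most abundant member, at 50.5 ± 12.8 FPKM in libraries labelled Q-KO and 44.0 ± 12.3 FPKM in wild-type libraries (limma adjusted p = 0.683).

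A list of 18 further genes linked to STAT3 in ES cells or in acute responses held 1 rise and 0 falls among 17 tested, with a median change of 0.29 and 16 of 17 changes above 0. Over all tested genes 3.04% rose and 1.02% fell, the median change was 0.07, and 59.3% of changes were above 0. Myc (means of 1.74 FPKM in libraries labelled Q-KO and 0.606 FPKM in wild-type) reached the filter through the libraries labelled Q-KO. So did Gadd45g (1.16 and 0.848 FPKM). The signs of Myc and Gadd45g are therefore not independent of the filter, and both are in the count and the median of the list. With median-of-ratios scaling 12 of 16 tested genes of the list were above 0, against 44.7% of all genes, and with quantile normalization 14 of 17, against 46.8%. Junb, an AP-1 transcription factor and immediate early gene, rose by 1.70 (SE 0.25, limma adjusted p = 0.0141). It was at 12.6, 11.1 and 10.9 FPKM in libraries labelled Q-KO and at 2.30, 2.01 and 4.75 FPKM in wild-type libraries. The groups were well apart, but the call held in only 2 of the 6 leave-one-out fits, those that left out wild-type replicate 2 or 3. Zfp36, an RNA-binding protein that destabilises short-lived messages, was at 4.90 ± 0.951 FPKM in libraries labelled Q-KO and 2.36 ± 0.396 FPKM in wild-type libraries (change 0.81, limma adjusted p = 0.0537). Icam1, an adhesion molecule, was at 66.0 ± 7.25 FPKM in libraries labelled Q-KO and 31.2 ± 11.9 FPKM in wild-type libraries (change 1.13, limma adjusted p = 0.0669). Neither overlapped between the groups. Mcl1, a survival factor and the most abundant of the list, overlapped between the groups, at 134 ± 5.28 FPKM in libraries labelled Q-KO and 121 ± 50.8 FPKM in wild-type libraries.

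The naive pluripotency factors that LIF is best known to sustain, Klf4 and Tfcp2l1, did not pass, and both are named with their values known. Klf4 was at 77.4, 98.7 and 94.1 FPKM in libraries labelled Q-KO and at 69.0, 69.0 and 82.1 FPKM in wild-type libraries (change 0.29, limma adjusted p = 0.293). Tfcp2l1 was at 116, 124 and 77.8 FPKM in libraries labelled Q-KO and at 81.5, 86.6 and 98.9 FPKM in wild-type libraries (change 0.22, limma adjusted p = 0.543). Cebpd, an acute-phase regulator whose mean was below the filter, was also named with its values known. It was at 1.25, 1.67 and 1.41 FPKM in libraries labelled Q-KO and at 0.324, 0.472 and 0.134 FPKM in wild-type libraries.

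**Figure D4:**
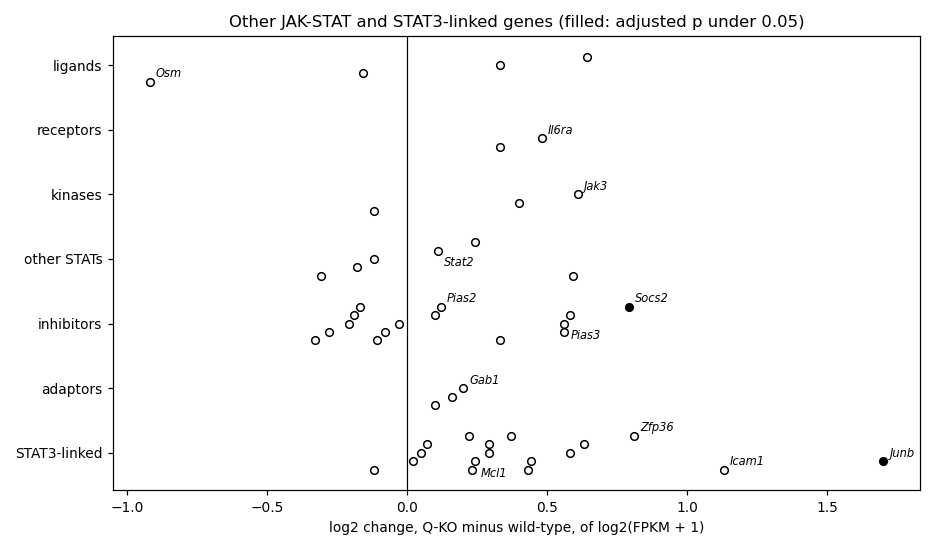
Log2 change (Q-KO minus wild-type, of log2(FPKM + 1)) of the tested genes of the other JAK-STAT lists, by role, and of the STAT3-linked list; filled points passed an adjusted p of 0.05, and points are spread vertically for legibility only. Socs2 and Junb are the filled points, and Osm lies farthest to the left at -0.92.

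Profiles over the 6 libraries were compared by the mean absolute difference of log2(FPKM + 1) after each profile was centred on its own mean. The comparison was with a selection of the tested genes. It left out the receptor, signalling and target genes described here, and symbols such as those starting with Gm or Mir or ending in Rik. The nearest profiles are therefore the nearest among the genes kept. The profiles nearest to Stat3 were those of Nckap5l (0.06), Myo19 (0.0619), a mitochondrial myosin gene on chromosome 11, and Arhgap17 (0.0622). Those nearest to Socs3 were Zfp219 (0.031), Ccdc92 (0.0371) and Rhobtb2 (0.0413). The nearest to Fgl1 were Atp6v0d1 (0.0458), which encodes a subunit of the vacuolar proton pump, and the adaptor complex genes Ap5z1 (0.0508) and Ap4s1 (0.0585). Atp6v0d1 was at 72.8, 71.0 and 67.5 FPKM in libraries labelled Q-KO and at 38.1, 41.0 and 36.0 FPKM in wild-type libraries. The log2(FPKM + 1) scale understates the change of Fgl1, so a near profile need not share its ratio of means. These profiles share the same 6 libraries in 2 groups, so the likeness is a description only.

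**Figure D5:**
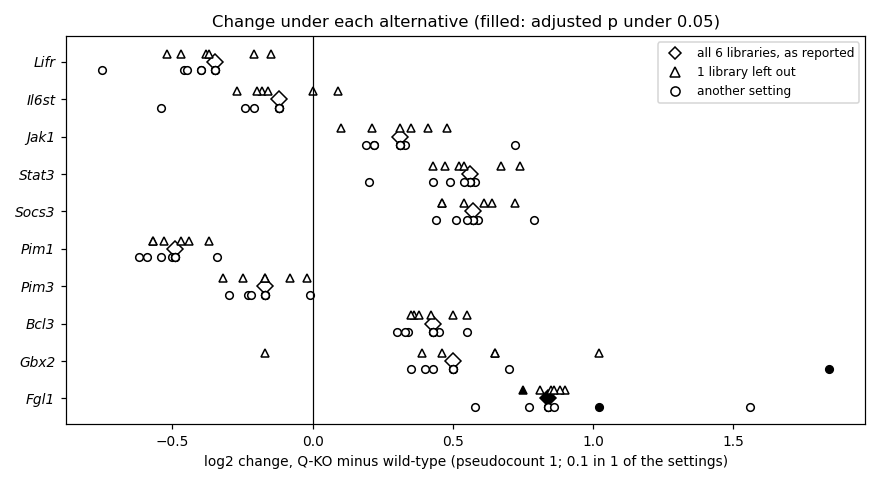
Log2 change (Q-KO minus wild-type) of the 10 genes with all 6 libraries (diamonds), with 1 library left out (triangles) and under the other settings (circles); filled symbols passed an adjusted p of 0.05. Fgl1 is filled with all libraries and in some alternatives, Gbx2 ranges from -0.17 to 1.84, and Socs3, Stat3 and Bcl3 stay above 0 and Pim1 below 0 without passing.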

How the data were processed

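RNA was extracted with Trizol and sequenced as Illumina libraries, per the labels' protocols. The values are FPKM, deposited by the authors in 1 table with a row for each gene symbol. The tools named in the submitters' processing notes, without role or order, are CASAVA, bcl2fastq 2.16, STAR 2.5 and Cufflinks, with build mm9. The sources used here do not give the annotation, strand setting or absolute depth. FPKM depends on each library's total, and on how multi-mapping fragments were shared. After 1 stray header row was dropped, 24043 genes remained.

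Groups and replicate numbers came from sample titles. Genes whose mean reached 1 FPKM were fitted as log2(FPKM + 1) with limma 3.58.1 in R 4.3.3 (intensity trend, two-sided, Benjamini-Hochberg over all genes, threshold 0.05). The fit and the depth estimate from low values were tested on simulated data. The 10 genes and the lists were chosen with earlier results of these data known. Besides the 10 genes, the text names the called members of each list (up to 6), its most abundant tested gene per role, the 2 uncalled genes with the smallest p, and the 3 nearest profiles. Genes outside this rule, such as Lif, Osmr, Klf4, Tfcp2l1, Cebpd and most individual marker genes, were named with their values known. Chromosomes and promoters came from RefSeq tables of GRCm38.p6, whose coordinates were not mixed with mm9.

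Alternatives were each library left out, chromosome centring, the replicate block, quantile normalization and median-of-ratios scaling. Others were a term for libraries whose Y-linked genes summed to at least 1 FPKM, a pseudocount of 0.1, and filters of none or 5 FPKM. The last were fits that were robust or had no trend, and a minimum of 2-fold on the FPKM + 1 scale.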

Additional observations from a re-analysis of the deposited data

How the results depend on the processing

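Of the 10 genes, 8 kept their direction in every alternative run. The exceptions came without wild-type replicate 3, where Il6st was at 0.09 and Gbx2 at -0.17, as the ends of leave-one-out ranges from -0.27 to 0.09 and from -0.17 to 1.02. The count of the 10 genes that passed was 1 as reported. It was 0 with a pseudocount of 0.1, a mean of at least 5 FPKM (Fgl1 is then not tested), median-of-ratios scaling, quantile normalization, chromosome centring or a minimum of 2-fold, 2 with the Y-linked term (Fgl1 and Gbx2), and 0 to 1 with a library left out. The minimum of 2-fold applies to FPKM + 1, where Fgl1, with a log2 change of 0.84, fell short of it. In FPKM its mean was 3.22 times as high. The cause of the other changes in this count was not tested, apart from the filter that leaves Fgl1 out. The Y-linked term in effect sets the libraries labelled Q-KO against wild-type replicate 3 alone, also in the counts below. Against the fit as reported, median-of-ratios scaling moved the median change of all genes by -0.12 and quantile normalization by -0.10. None of the 10 genes changed sign under either.

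The count over all genes, 470, was 266 with a mean of at least 5 FPKM, 280 with a minimum of 2-fold, 894 with the Y-linked term, and 28 to 566 with a library left out (the fit that left out wild-type replicate 1 gave 94, and those that left out Q-KO replicates 1, 2 and 3 gave 187, 28 and 85). For the other JAK-STAT genes the count of 1 was 2 with median-of-ratios scaling, quantile normalization, a robust fit or chromosome centring, 3 with the Y-linked term, 0 with a minimum of 2-fold, and 0 to 2 with a library left out. For the STAT3-linked genes the count of 1 was 2 with no filter, no intensity trend, a robust fit or the Y-linked term, and 0 to 3 with a library left out. Genes that did not pass and changed sign were Jak3 (-0.05 with the Y-linked term), Stat2 (-0.01 with median-of-ratios scaling, -0.02 with the Y-linked term, and -0.03 to 0.20 with a library left out), Pias2 (-0.01 with median-of-ratios scaling), Gab1 (-0.17 with the Y-linked term and -0.02 to 0.39 with a library left out) and Mcl1 (-0.10 to 0.54 with a library left out).

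Same-numbered libraries of the groups did not deviate together from their group means (Pearson's r across genes of -0.028, 0.012 and 0.022 for numbers 1, 2 and 3), so the numbers were not read as pairs. With the replicate block, 333 genes passed, and 0 of the 10 genes, 1 of the other JAK-STAT genes and 1 of the STAT3-linked genes were among them. Low levels limit Fgl1, Lifr and Gbx2 most, and without absolute depth no counting error could be set beside them.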
